A study of Mus musculus with 78 samples.

Results

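The copies described here are those of MIR and L2, repeat families that inserted long before the mouse lineage arose. They were taken by name from the repeat table of each stage, as every row whose name starts with MIR or is L2, L2a, L2b or L2c before its running number. The rule found 7037 of the 278683 repeat copies listed at the 4-cell stage (2.53%) and 9635 of the 327627 listed at the 8-cell stage (2.94%). In both tables together 13604 MIR and L2 copies were listed, of 461206 copies in all. At the 4-cell stage they were 1576 MIRb, 1403 MIR, 903 L2a, 874 MIRc, 662 L2, 618 MIR3, 520 L2b and 481 L2c copies, and at the 8-cell stage 2129, 1935, 1203, 1194, 929, 853, 710 and 682 in the same order.

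MIR elements are short interspersed elements derived from a tRNA, and L2 elements are long interspersed elements whose machinery is thought to have moved MIR as well. Neither family is active in placental mammals today, and their copies are short, diverged remnants. RNA that covers such a copy is usually part of a longer transcript that contains it, such as an unspliced intron, an untranslated region or a long noncoding RNA. Many MIR and L2 remnants have been conserved as parts of exons, regulatory elements or microRNA genes, which sets them apart from the young repeats that are transcribed from their own promoters in the early mouse embryo.

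The RNA came from single blastomeres of mouse embryos. Every embryo came from mating STOCK Tg(CAG-cre/Esr1*)5Amc/J mice with mice that hold a Brainbow cassette at the ROSA26 locus, and so carried the Brainbow reporter and a tamoxifen-inducible Cre that the CAG promoter drives in all cells. Embryos were taken at the 2-cell stage, 46 h after the last hormone injection of the mothers, kept for 2 h in 4-Hydroxytamoxifen and grown in KSOM medium until they had 4 or 8 cells, and no group without Cre or tamoxifen was among the samples. The tables hold 24 blastomeres of the 4-cell stage and 26 of the 8-cell stage, and 5 of the 8-cell columns are named NA. No column name gives the embryo or the lineage of a blastomere, so blastomeres were not treated as replicates, each stage counted as 1 sample, and no difference between the stages was tested.

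Values are FPKM, the fragments on a copy divided by its length and by the counted fragments of the library, which are the denominator. The denominator ran from 6884378 to 16904615 fragments over the 4-cell blastomeres and from 2341593 to 21782101 over the 8-cell blastomeres, where S57 was the lowest and the next had 12593698. Of 11 markers of blastomeres and oocytes, Dppa3 and Obox6 were above 0 in all 50 blastomeres, with Dppa3 at a median of 3658 FPKM in the younger and 3260 FPKM in the older embryos. Pou5f1, Nanog and Zp3 were above 0 in 22, 24 and 23 of 24 4-cell and in 26, 23 and 26 of 26 8-cell blastomeres. Npm2, Nlrp5, Tcl1, Bmp15 and Gdf9 were at 0 in some blastomeres of both stages, and Cdx2 was not listed at the 4-cell stage and above 0 in 4 8-cell blastomeres. The summed level of 7 cumulus and granulosa markers had a median of 0 at both stages and a highest value of 3.06 FPKM, with Fshr, Foxl2, Inhba and Ptx3 in neither table. Among the leukocyte markers Ptprc was in neither table, and Coro1a, an actin-binding protein, was above 0 in 14 of 24 and 9 of 26 blastomeres, up to 83.8 FPKM, and Cd52 in 6 of 24 and 6 of 26, up to 39.5 FPKM. Their part in the results was not tested. The 4-cell blastomeres S18 and S20 stood apart with 3009 and 3699 genes above an FPKM of 1, against a 4-cell median of 7155.

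A single 4-cell blastomere had between 243 (S20) and 1247 (S1) MIR and L2 copies above 0, with a median of 666.5. An 8-cell blastomere had between 189 (S57) and 1546 (a column named NA), with a median of 853.5. The ranges overlapped, and the lowest 8-cell number was below every 4-cell number. When every blastomere was thinned to 900000 repeat fragments, which left out S57, the medians were 649.5 and 786. As a share of all repeat copies above 0 in the same blastomere, MIR and L2 made up 1.05% to 2.43% at the 4-cell stage (median 1.88%) and 1.34% to 2.60% at the 8-cell stage (median 2.28%). As a share of the fragments on repeats, they made up 1.68% to 3.10% (median 2.62%) and 2.68% to 3.71% (median 3.03%), and the lowest 4-cell shares were those of S18 and S20, at 1.68% and 1.92%.

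The number of MIR and L2 copies in a blastomere had a higher correlation with the number of genes above an FPKM of 1 than with depth. Over the 24 4-cell blastomeres the Spearman correlation of MIR and L2 copies with genes above an FPKM of 1 was 0.89 (Pearson 0.76, and 0.84 without S18 and S20, the farthest from the median), and with the denominator it was -0.07 (Pearson 0.06). Over the 26 8-cell blastomeres the correlation with genes was 0.67 (Pearson 0.83) and with the denominator 0.40 (Pearson 0.62). The last of these fell to a Pearson value of 0.40 without the blastomeres S57 and S58, and that with genes stayed at 0.75. With the number of all repeat copies above 0 the Spearman correlation was 0.78 (Pearson 0.86) at the 4-cell stage. At the 8-cell stage it was 0.93 (Pearson 0.95), higher than with genes. Copies and genes were counted in the same library, and blastomeres of an embryo share their origin, so these values describe the libraries.

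**Figure D1:**
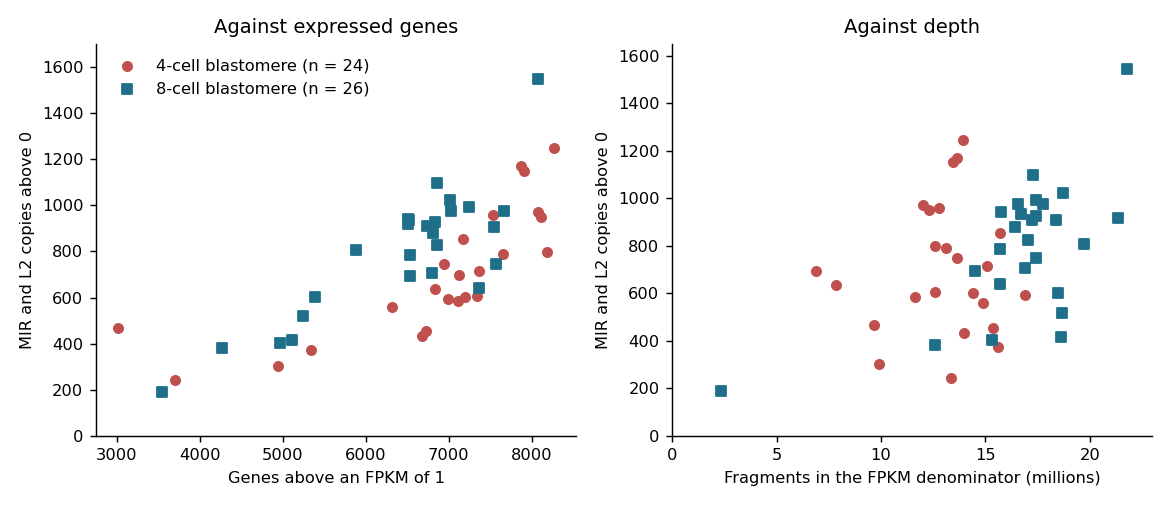
MIR and L2 copies above 0 in each blastomere (vertical axis) against the number of genes above an FPKM of 1 (left) and the fragments in the FPKM denominator (right, axis units as labelled), with circles for the 24 4-cell and squares for the 26 8-cell blastomeres. The 4-cell points rise with the genes, from 243 copies to 1247, and show no slope against depth.

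Every subfamily had copies above 0 in every blastomere, and the median number of each was higher at the 8-cell stage, whose libraries were deeper. Per 1000000 fragments of the denominator the median over blastomeres of all MIR and L2 copies was 52.2 at the 4-cell stage and 49.7 at the 8-cell stage, the other way round. The subfamilies were not thinned to one depth. At the 4-cell stage the median blastomere had 148.5 MIRb, 103 MIR, 88 MIRc, 71 MIR3, 83.5 L2a, 60.5 L2c, 59.5 L2 and 54.5 L2b copies above 0. At the 8-cell stage these were 182, 155, 115.5, 81.5, 103.5, 67, 83.5 and 65.5. In the 4-cell blastomere with the fewest, S20, the numbers ran from 17 MIR3 to 62 MIRb copies. In the 8-cell blastomere S57 they ran from 13 L2 to 38 MIR copies.

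Most of the copies were seen in a single blastomere. Of the listed MIR and L2 copies, 4747 at the 4-cell stage were above 0 in exactly 1 blastomere, which is 67.5% (exact 95% binomial interval 66.4% to 68.6%). At the 8-cell stage 6744 were, which is 70.0% (69.1% to 70.9%). These intervals cover counting error only. Over all repeat copies the same shares were 54.8% and 59.8%, over B1, a young rodent element, 56.5% and 59.1%, over the old L1M copies of L1 71.2% and 70.8%, and over MERVL, an endogenous retrovirus with activity in the early embryo, 13.1% and 19.9%. The MIR and L2 shares thus lay next to those of the other old family and above those of B1. Among the subfamilies at the 4-cell stage the share ran from 58.4% for MIR3 (54.4% to 62.3%) to 71.8% for MIR (69.3% to 74.1%), and at the 8-cell stage from 67.1% for MIRc to 72.3% for L2.

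The share of its MIR and L2 copies that a blastomere shared with no other of its stage differed widely. It was lowest in S4 at the 4-cell stage, where 47 of 434 copies (10.8%) were seen nowhere else, and highest in S18, with 67.9%. The next highest 4-cell share was 41.3%. At the 8-cell stage it ran from 16.7% (S50) to 46.3% (S54). S18 was also the blastomere with the fewest genes, and whether that bears on its copies was not tested.

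At the other end, 15 copies were above 0 in all 24 4-cell blastomeres (0.213%, interval 0.119% to 0.351%) and 22 in all 26 8-cell blastomeres (0.228%, 0.143% to 0.346%). Over all repeat copies these shares were 0.499% and 0.379%. The 4-cell number rests on S18 and S20: without both, 35 copies were above 0 in all 22 that remained. At least 12 of the 24 4-cell blastomeres showed 288 of the copies (4.09%), and at least 13 of the 26 8-cell blastomeres showed 236 (2.45%), where 7.21% and 4.59% of all repeat copies were seen this often. A MIR or L2 copy was above 0 in 2.4 blastomeres on average at the 4-cell and in 2.15 at the 8-cell stage, against 3.33 and 2.85 over all copies.

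**Figure D2:**
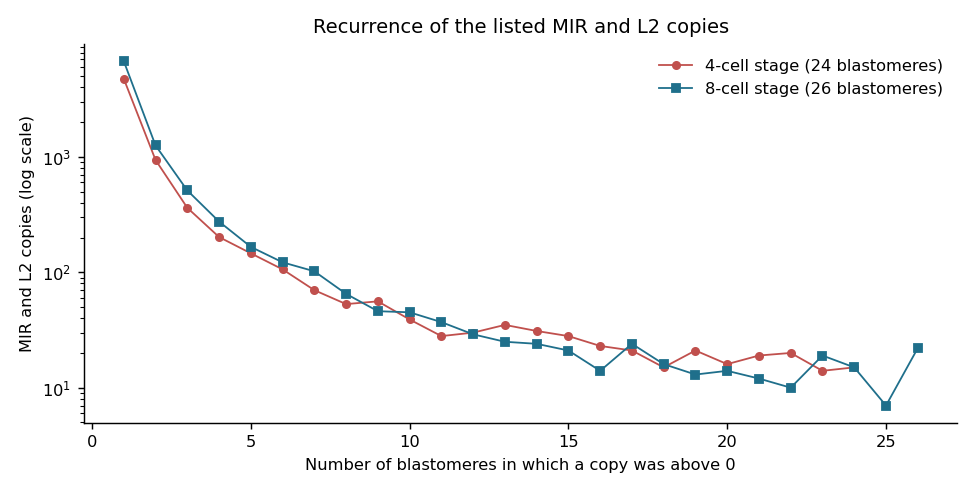
Number of listed MIR and L2 copies (vertical axis, log scale) by the number of blastomeres in which the copy was above 0, for the 24 4-cell (circles) and 26 8-cell blastomeres (squares). Both curves fall from 4747 and 6744 copies in exactly 1 blastomere to 15 copies in all 24 and 22 copies in all 26.

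Copies seen often at one stage were listed at the other. Both tables listed 3068 MIR and L2 copies, or 43.6% of those listed at the 4-cell stage and 31.8% of those at the 8-cell stage. Over all repeat copies the shares were higher, 52.1% and 44.3%, and over the L1M copies slightly lower, 42.5% and 29.5%. Of the 4747 copies seen in exactly 1 4-cell blastomere, 1333 (28.1%) were in the 8-cell table, against 32% over all repeat copies seen once. Of the copies seen in 2 to 5 4-cell blastomeres 67.3% were, and of the 352 seen in 6 to 11 95.7%, against 65.7% and 93.1% over all repeat copies. In the other direction, 17.6% of the 6744 copies seen in exactly 1 8-cell blastomere were in the 4-cell table, against 25.6% over all repeat copies, and 55.4% of those seen in 2 to 5, against 62.9%. All 288 copies seen in at least 12 4-cell blastomeres were listed at the 8-cell stage, and all 236 seen in at least 13 8-cell blastomeres were listed at the 4-cell stage. Over all repeat copies this was so for 99.57% of those seen in 12 to 23 4-cell blastomeres, for 98.65% of those seen in 13 to 25 8-cell blastomeres and for all of those seen in every blastomere, so MIR and L2 were near the background here. The 8-cell list was longer by 1.37 times for MIR and L2, 1.44 times for L1M copies and 1.18 times over all repeats, and it held 26 blastomeres where the other held 24.

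Chromosomes with many listed genes, and those with many listed repeats of any kind, had many listed copies. Over the 19 autosomes and the X chromosome the number of MIR and L2 copies on a chromosome had a Spearman correlation with its number of listed genes of 0.83 for the 4-cell and 0.82 for the 8-cell stage, a description over 20 chromosomes that also differ in length. With the number of all listed repeat copies it was higher, 0.89 and 0.88. Chromosome 4 held the most, with 731 copies (10.4%) at the 4-cell stage and 916 (9.51%) at the 8-cell stage, where it held 6.98% and 6.76% of all repeat copies. Chromosome 17 held 211 and 299 copies (3% and 3.1%), against 4.38% and 4.17% of all repeat copies.

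On the X chromosome, 240 MIR and L2 copies were listed for the 4-cell and 456 for the 8-cell stage, or 3.41% and 4.73% of each list, 1.90 times as many where the autosomes ranged from 1.24 to 1.61 times. Over all repeat copies the X chromosome held 3.69% and 4.12%, and its list was 1.31 times as long at the 8-cell stage where the autosomes ranged from 1.12 to 1.23 times. In 4 columns of the 4-cell table almost none were above 0. S13 had 2 X-linked copies of 1151 above 0, S14 had 2 of 594, S15 had 1 of 456 and S16 had 2 of 852. In the other 20 4-cell blastomeres 12 to 50 X-linked copies were above 0 (median 22), and in the 8-cell blastomeres 7 to 65 (median 31.5). The same columns had 0.729% to 1.03% of their genes above 0 on the X chromosome, where the other 4-cell blastomeres had 2.84% to 3.85%. Of all their repeat copies above 0, 1.51% to 2.53% were on the X chromosome, against 3.24% to 5.65% in the others, and of their MIR and L2 copies 0.174% to 0.337%, against 1.95% to 5.35%. Their number of genes above an FPKM of 1 was 6722 to 7912, within the range of the rest. These blastomeres were picked out after their values were seen, so they are described here and compared by no test. Without them, 239 of 6039 listed copies (3.96%) were on the X chromosome.

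The stages were next compared copy by copy, over the 248 MIR and L2 copies listed at both and above 0 in at least 25 of the 50 blastomeres. The mean FPKM was more than 2-fold higher at the 8-cell stage for 39 of them (15.7%), where 16.5% of all 15721 repeat copies compared passed this limit, and more than 2-fold higher at the 4-cell stage for 33 (13.3%), where 34.5% of all repeat copies did. Without the 5 columns named NA the split turned, with 23 of 193 copies past 2-fold higher at the 8-cell and 28 higher at the 4-cell stage, where 1920 and 4630 of 13308 repeat copies were. The median log2 ratio of 8-cell over 4-cell means was -0.06 over the MIR and L2 copies and -0.35 over all repeat copies. It was -0.24 over 1320 B1 copies, -0.09 over 155 L1M copies and -2.42 over 896 MERVL copies, of which 766 were past 2-fold higher at the 4-cell stage. Since each stage is 1 sample, these are counts of ratios with no test behind them.

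The counts by subfamily were small. Of 30 MIR copies 9 were past 2-fold higher at the 8-cell stage and 3 at the 4-cell stage, of 52 MIRb copies 11 and 6, of 40 MIRc copies 8 and 4, and of 26 MIR3 copies 1 and 2. Of 29 L2a copies 2 were past 2-fold higher at the 8-cell stage and 7 at the 4-cell stage, of 23 L2 copies 1 and 2, of 21 L2b copies 3 and 4, and of 27 L2c copies 4 and 5. Copies with MIR names together gave 29 and 15 of 148, and those with L2 names 10 and 18 of 100. The shares higher at the 4-cell stage, 24.1% for L2a and 18% for the L2 names, were thus below the 34.5% of all repeat copies. They were above the 14.2% of L1M copies. Of the shares higher at the 8-cell stage, 30% for MIR, 21.2% for MIRb and 19.6% for the MIR names were above the 16.5% of all repeat copies, and 10% for the L2 names was below it. Whether the subfamilies differ was not tested.

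**Figure D3:**
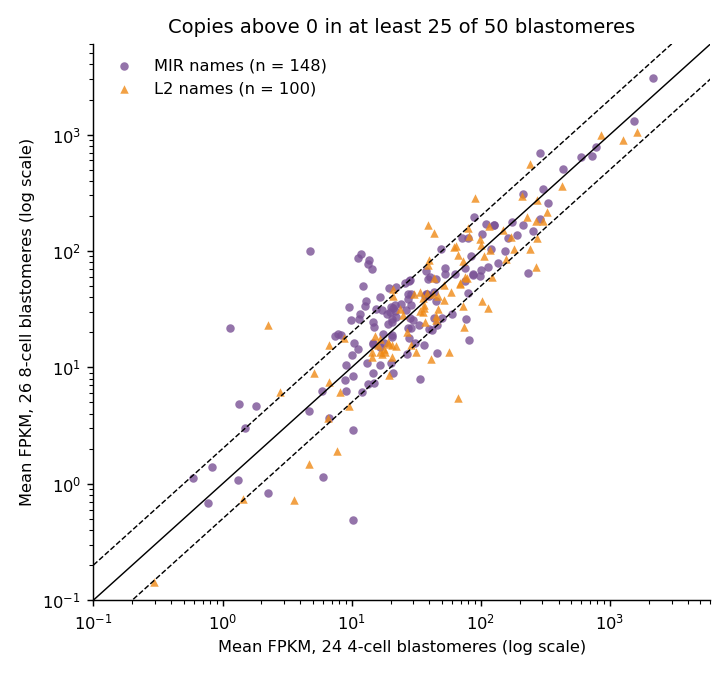
Mean FPKM over the 26 8-cell blastomeres (vertical) against the mean over the 24 4-cell blastomeres (horizontal), both on log scales, for 148 copies with MIR names (circles) and 100 with L2 names (triangles). The solid line marks equal means and the dashed lines a ratio of 2, and 39 copies lie above the upper and 33 below the lower dashed line.

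The copies furthest toward the 8-cell stage were seen in few 4-cell blastomeres. MIR_dup279_chr17 was above 0 in 7 of 24 4-cell blastomeres, with a highest value of 31.1 FPKM, and in 21 of 26 8-cell blastomeres, with a median of 49.2 FPKM and a highest value of 498 FPKM in S58. Its mean was 4.76 FPKM at the 4-cell and 99.1 FPKM at the 8-cell stage, a log2 ratio of 4.38. MIR_dup2202_chr7 was above 0 in 6 and 21 blastomeres, with means of 1.14 and 21.8 FPKM, and 51.9% of its 4-cell sum lay in the blastomere S17. The 8-cell medians of both copies lay above every one of their 4-cell values, and both were at 0 in 5 8-cell blastomeres. For L2c_dup266_chr15, above 0 in 7 and 18 blastomeres, the means were 2.24 and 22.9 FPKM. MIR_dup2666_chr4 and MIR_dup1460_chr9 had means of 11.9 and 11.1 FPKM at the 4-cell stage and of 94.7 and 86.7 FPKM at the 8-cell stage, and the blastomere S58 alone held 31.4% of the 8-cell sum of the first.

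In the other direction, MIR3_dup563_chr10 was above 0 in 18 of 24 4-cell blastomeres, with a median of 5.99 FPKM and a highest value of 53.6 FPKM, and in 7 of 26 8-cell blastomeres, with a highest value of 3.83 FPKM. Its means were 10.3 and 0.488 FPKM, a log2 ratio of -4.40 that was -6.06 without the columns named NA and -3.79 without the columns S13 to S16. L2b_dup309_chr8 was above 0 in 20 and 8 blastomeres with means of 66.2 and 5.48 FPKM, a log2 ratio of -3.59 that was -2.79 without S13 to S16. Of its 8-cell sum, 48% lay in the blastomere S54. MIRb_dup1336_chr2 had means of 5.95 and 1.15 FPKM, L2a_dup39_chr17 of 3.58 and 0.725 FPKM and MIRc_dup587_chr11 of 80.6 and 17 FPKM. The blastomere S55 held 42.8% of the 8-cell sum of L2a_dup39_chr17. The ranges of the stages overlapped for each of these copies, because each was at 0 in some blastomeres of both stages.

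The tables give a copy its chromosome and a running number but no start or end, so its host gene was sought by pattern. For each copy above 0 in at least 12 4-cell and 13 8-cell blastomeres, the gene with the highest Spearman correlation over the blastomeres was found at each stage separately, among 7107 genes on all chromosomes. The rule admitted 193 MIR and L2 copies, or 2.74% of those listed at the 4-cell stage and 193 of the 9635 at the 8-cell stage, so nothing here describes the many copies seen once. For 86 of them (44.6%) the same gene came first at both stages, where 17% of all 11718 repeat copies compared did so. The shares were 20.5% of 997 B1 copies, 23.6% of 127 L1M copies and 1.54% of 714 MERVL copies. By subfamily they ran from 34.8% of 23 L2a copies to 60% of 20 MIR3 copies.

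The chromosome in the name of the copy was not used in the search. All 86 matched genes lay on the chromosome of their copy, and on average 5.81% of the candidate genes lie on the chromosome of a copy. The same held for nearly every match of any repeat, with 1973 of the 1991 same-gene matches over all repeat copies on the chromosome of the copy, 202 of 204 for B1, 30 of 30 for L1M and 11 of 11 for MERVL. Taken at each stage alone, the best gene lay on the chromosome of the copy for 111 of the 193 copies at the 4-cell stage (57.5%) and for 108 at the 8-cell stage (56.0%), against 26.1% and 27.2% over all repeat copies. The running number of the copies was also set against gene position, though the names do not say that it follows position along the chromosome. In all 22 pairs of copies of one subfamily and chromosome that matched different genes, the copy with the higher number matched the gene with the higher start. The 86 copies matched 80 genes, with protein-coding genes for 83 copies and long noncoding RNA genes for 3.

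The matched gene followed its copy closely at both stages. The median correlation was 0.93 for the 4-cell and 0.91 for the 8-cell stage, and the next best gene had a median of 0.76 and 0.73. For 41 of the 86 copies the correlation was at least 0.9 at both stages, and the lowest was 0.65, of MIRc_dup823_chr1 with Uchl5 at the 8-cell stage. Since the gene was chosen for this likeness, these values describe the choice. Genes and copies were counted from the same reads, and a fragment on an exon that contains a copy can enter both tables. Over the 4300 combinations of a matched copy and a blastomere, copy and gene were both above 0 in 77.7%, both at 0 in 12.2% and the gene alone above 0 in 10.1%, and in 0 of them was the copy above 0 with its gene at 0.

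MIRb_dup1386_chrX, a copy of 65 bases, had the closest match. At the 4-cell stage its value ran from 0 to 3598 FPKM with a median of 1580 FPKM, and that of Cited1, a transcriptional coregulator, from 0 to 579 FPKM with a median of 256 FPKM. At the 8-cell stage the medians were 1170 and 184 FPKM, and the highest values, 4210 and 665 FPKM, fell in the same blastomere, S55. The Spearman correlation was 0.998 and 0.992. The copy was at 1.14 FPKM in S13 and at 0 in S14, S15 and S16, the columns with few X-linked copies, and Cited1 was at 0.146, 0.0387, 0 and 0 FPKM there. In the other 20 4-cell blastomeres neither was at 0, and the correlation without the 4 columns was 0.997. Cited1 lies on the minus strand at chrX:102247378-102252181 in GRCm38.p6.

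Among the other close matches, MIR_dup998_chr7 followed Wdr73, a WD-repeat protein, with correlations of 0.97 and 0.99, and was highest at 1330 FPKM in S57, the library with the fewest fragments, as was the gene. MIRb_dup2626_chr4 followed Med8, a subunit of the Mediator complex, with 0.97 at both stages. Its medians were 116 and 158 FPKM and those of Med8 41.7 and 52.8 FPKM. MIRb_dup1624_chr6 followed Rpusd3, a mitochondrial pseudouridine synthase family member (0.96 and 0.99), and was at 0 in 3 4-cell and 9 8-cell blastomeres, where Rpusd3 was at 0 in 2 and 9. L2b_dup726_chr9 followed Nme6, of the nucleoside diphosphate kinase family (0.97 and 0.96). MIR3_dup1522_chr4 followed Lzic (0.98 and 0.96), with medians of 10.4 and 26.6 FPKM against 5.19 and 12.5 FPKM for the gene.

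L2c_dup690_chr6 was above 0 in all 50 blastomeres, from 354 to 1681 FPKM at the 4-cell stage and from 180 to 1519 FPKM at the 8-cell stage, and followed Bcat1, the cytosolic branched-chain aminotransferase (0.96 at both stages). Its mean FPKM over the 50 blastomeres was 9.75 times that of the gene. L2c_dup822_chr4 followed Ppcs, an enzyme of coenzyme A synthesis (0.96 and 0.98). The copy was above 0 in all 24 4-cell blastomeres, with a median of 218 FPKM, and in 18 of 26 8-cell blastomeres, with a median of 42.2 FPKM, while Ppcs had medians of 62.8 and 8.12 FPKM. Bcat1 lies at chr6:144993835-145076157 and Ppcs at chr4:119418527-119422440, both on the minus strand.

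The rest of the 12 closest matches were with genes of other kinds. L2b_dup754_chr11 followed Pecam1, a cell adhesion molecule (0.96 and 0.97), with medians of 245 and 119 FPKM against 50.8 and 22.8 FPKM for the gene. MIRc_dup133_chr3 followed Zfp639, a zinc finger protein (0.96 and 0.95), with medians of 225 and 59.2 FPKM against 67.5 and 16.2 FPKM. MIR_dup2668_chr2 followed Mroh8 (0.98 and 0.97), of which both were at 0 in many blastomeres, the copy in 8 and 13 and the gene in 8 and 12. MIR3_dup661_chr1 followed the long noncoding RNA 2810025M15Rik (0.99 and 0.96). For every one of these 12 copies the copy had the higher mean FPKM of the pair over the 50 blastomeres.

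**Figure D4:**
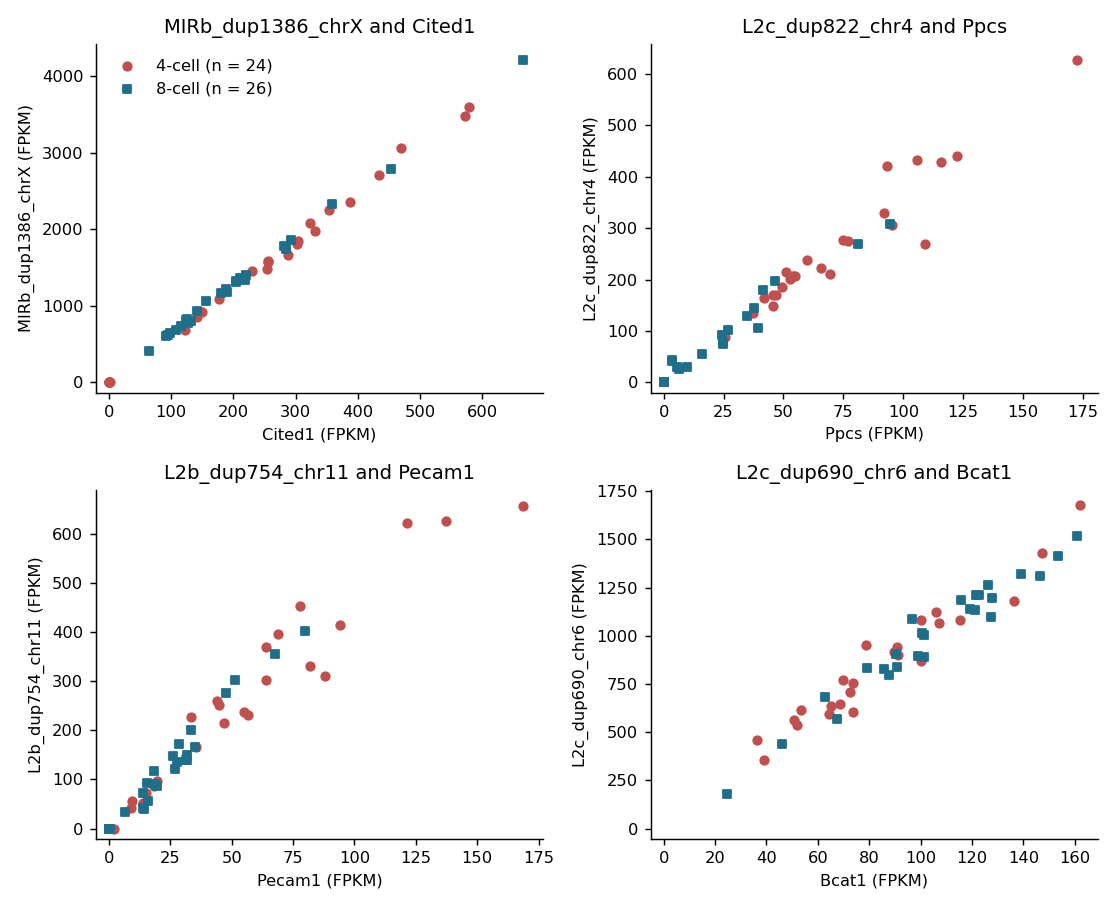
FPKM of 4 copies (vertical axes) against FPKM of their matched genes (horizontal axes) in each of the 24 4-cell (circles) and 26 8-cell blastomeres (squares). The points of both stages lie along one band in each panel, with MIRb_dup1386_chrX and Cited1 the narrowest, at correlations of 0.998 and 0.992.

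Over all 86 matched copies the mean FPKM of the copy was a median of 3.29 times that of its gene, from 0.0738 (MIR3_dup806_chr7 with Nupr1) to 11 (L2_dup298_chr14 with Rnf17), and it was the higher of the pair for 79. Both values are per length of their own feature. The ratio was higher for shorter copies, with a Spearman correlation of -0.58 with the length of the copy over the 86 copies, whose lengths ran from 28 to 257 bases with a median of 91.0. How a fragment that overlaps a copy only in part was counted is not given in the sources used here, and the ratio is not read as a ratio of RNA levels.

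The difference between the stages, which the search within each stage did not use, ran alike in copy and gene. Over the 86 copies the log2 ratio of 8-cell over 4-cell means correlated with that of the matched gene with a Pearson value of 0.96 and a Spearman value of 0.93, a description over pairs that share their reads. The copy and its gene differed by a median of 0.115 in this log2 ratio and by less than 1 for all 86, and 77 had the same sign. Of the 72 copies past 2-fold between the stages, 18 had a matched gene. All 18 genes lay on the same side as their copy, and 14 were past 2-fold themselves. L2_dup223_chr19 and its gene Slc35g1, a membrane transporter family member, had log2 ratios of 2.11 and 1.96. L2b_dup102_chr2 and Sptan1, a spectrin of the membrane skeleton, had 1.67 and 1.5. The matched copy furthest toward the 4-cell stage, L2b_dup21_chr7, had -2.08 and its gene Ehd2, of a family of membrane-shaping ATPases, -1.44, a wider gap than in the pairs that follow. L2c_dup822_chr4 and Ppcs had -1.86 and -1.87, MIRc_dup133_chr3 and Zfp639 -1.85 and -1.90, L2a_dup1022_chr4 and Txndc12, an oxidoreductase of the endoplasmic reticulum, -1.80 and -1.90, and L2c_dup73_chr17 and Cdkn1a, the cell cycle inhibitor p21, -1.44 and -1.29.

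**Figure D5:**
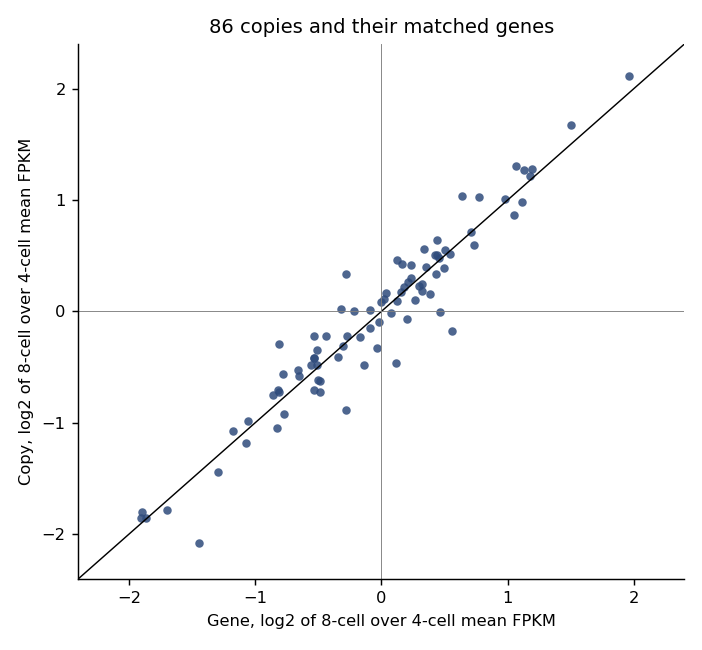
Log2 ratio of the 8-cell over the 4-cell mean FPKM of a copy (vertical) against that of its matched gene (horizontal), 1 point for each of the 86 copies with the same best gene at both stages, with the line of equality. The points lie along the line with a Pearson correlation of 0.96, from Ppcs, Zfp639 and Txndc12 at the lower left to Slc35g1 at the upper right.

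Some genes were matched by several copies. Colgalt1, a galactosyltransferase that modifies collagen (chr8:71610042-71624911), was the best gene at both stages of 4 copies, MIRb_dup606_chr8, L2a_dup471_chr8, L2b_dup201_chr8 and L2c_dup189_chr8. Their correlations with the gene ran from 0.84 to 0.94, those between them from 0.80 to 0.96, and their mean FPKM from 1.30 to 5.74 times that of Colgalt1. Bud31, a splicing factor (chr5:145140376-145148078), was matched by L2_dup888_chr5 and MIR3_dup868_chr5, which correlated with each other at 0.94 and 0.90. Pdxdc1 and the long noncoding RNA 1600020E01Rik were matched by 2 copies each, which correlated with each other less, at 0.80 and 0.67 for Pdxdc1 and at 0.74 and 0.68 for 1600020E01Rik. The pair of 1600020E01Rik also had stage log2 ratios of opposite sign, 0.33 for MIRb_dup991_chr6 and -0.88 for MIR_dup1008_chr6. Copies with the same matched gene are not independent cases, yet each enters the counts and correlations over the 86 matched copies separately.

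The 10 copies above 0 in all 50 blastomeres held 17.7% to 30.1% of the MIR and L2 fragments in the 4-cell blastomeres (median 23.7%) and 13.4% to 33.5% in the 8-cell ones (median 21.5%). The highest was MIRb_dup327_chr7, 65 bases long, at 882 to 3378 FPKM (median 2143) at the 4-cell and 1897 to 4436 FPKM (median 3147) at the 8-cell stage. L2_dup511_chr5 had medians of 1457 and 1097 FPKM and L2_dup888_chr5 of 1223 and 940 FPKM, and at the 8-cell stage L2c_dup690_chr6 lay between them at 1050 FPKM. The lowest value among the 10 copies was 18.3 FPKM, of L2a_dup1333_chr7 in S20, and the ranges of the stages overlapped for each of the 10.

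For 7 of the 10 the same gene came first at both stages. Besides Bcat1 and Bud31, the last matched by 2 of the 10, these genes were Psmd12, a subunit of the proteasome cap (MIR_dup2020_chr11, medians 772 and 773 FPKM), Eif4e, the protein that binds the mRNA cap (MIR_dup1757_chr3, 717 and 660 FPKM), Fkbp4, a cochaperone of HSP90 (MIRc_dup1106_chr6, 398 and 481 FPKM), and Cdipt, the phosphatidylinositol synthase (L2a_dup1333_chr7, 208 and 278 FPKM). The lowest value of L2a_dup1333_chr7 was 18.3 FPKM, in S20, where Cdipt was also lowest, at 12 FPKM.

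The other 3 had a different gene at each stage. MIRb_dup327_chr7 came closest to Cystm1 on chromosome 18 at the 4-cell stage (0.94) and to Rpl13a, a ribosomal protein gene on its own chromosome 7, at the 8-cell stage (0.93). L2_dup511_chr5 came closest to Ppat, an enzyme of purine synthesis on chromosome 5 (0.95), and then to Rab1a on chromosome 11 (0.87). L2c_dup395_chr15 came closest to Syngr1 on chromosome 15 (0.94), and then to Atp5mpl on chromosome 12 (0.87). In each case a gene on the chromosome of the copy came first at one of the stages.

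Of the 107 copies with different genes at the stages, the best gene lay on the chromosome of the copy for 25 for the 4-cell and 22 for the 8-cell stage. Their median best correlation was 0.78 and 0.75. They were also lower, with a median over copies of 17.7 FPKM for the median over the 50 blastomeres, against 57.2 FPKM for the 86, and they were above 0 in a median of 35 blastomeres against 39. The part of level in whether a copy found the same gene was not tested.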

How the data were processed

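Smart-seq2 libraries of single blastomeres were sequenced as read pairs. The authors aligned them with STAR 2.5.1b to mm10, kept unique alignments and counted them with HTSeq on Refseq genes and RepeatMasker copies. They deposited a gene and a repeat table per stage as FPKM values. For repeats the FPKM unit is inferred here. Over the columns, 53.6% to 74.5% of the reciprocals of low values were whole multiples (within 0.02) of 1 denominator per column. From these the denominators, copy lengths and fragments were recovered (shortest length and fewest fragments allowed). The denominators first found for S14 and S24 were divided by 2 to align them with the other columns. None of the 100 columns maps to a sample. The gene column of the same name shared the denominator in 50 of 50 cases, and 89.9% to 95.7% of low gene values were then whole fragments. Members, lists and named items (the copies above 0 everywhere, the 5 largest stage ratios per direction, the 12 closest matches) were chosen with earlier results of these data known, and copies sharing a gene and columns with few X-linked copies after values were seen. Gene names and positions are RefSeq's for GRCm38.p6, the assembly of mm10. Python 3 with numpy and scipy was used, and recovery, matching and ratios were tested on simulated data. Alternatives are given below.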

Additional observations from a re-analysis of the deposited data

How the results depend on the processing

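No paired analysis was possible because no column carries an embryo, a lineage or a replicate number. Of 54 alternative values of the counts and shares, 40 stayed within 1.5 times the count or within the interval of the share. The median number of copies per blastomere was 398 (4-cell) and 534.5 (8-cell) with MIR names only and 263 and 319 with L2 names only, which hold fewer copies by construction. The share seen in exactly 1 blastomere was 63.5% and 63.2% when a copy counted from 2 fragments on, 66.2% and 67.0% after thinning, 66.3% (4-cell) without S18 and S20 and 71.9% (8-cell) without the columns named NA. The share seen in every 4-cell blastomere was 0.527% without S18 and S20, and leaving out S18 and S20 or S13 to S16 and searching a single chromosome were chosen after seeing the data. Copies past 2-fold were 316 of 714 when 10 of the 50 blastomeres sufficed (176 higher in 8-cell and 140 higher in 4-cell blastomeres, where 8580 and 18475 of all 44807 repeat copies were) and 132 of 248 with medians (60 and 72, against 3569 and 6946 of all 15721), where medians of 0 pass the limit. The same gene at both stages was found for 7 of the 10 copies above 0 everywhere. Over the other matching alternatives that searched all chromosomes it was found for 65 to 84 copies, all with the gene on the chromosome of the copy. Of the 12 closest matches 11 or 12 kept their gene there. Where only the chromosome of the copy was searched it was found for 107. In that search the chromosome is fixed, and the main matches stay first by construction. All 61 alternative ratios of the 10 copies named for a stage difference kept their direction and stayed past 2-fold. Those where 10 of the 50 blastomeres sufficed equal the main ratios by construction, and the copies were named for their large ratios. A copy with a median of 0 at one stage has no ratio of medians. Copies seen in few blastomeres have uncertain lengths and fragments, and copies below the depth of a library are at 0, so absence of a copy is not absence of its transcript.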

Other observations

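The 4 4-cell columns with 1 or 2 X-linked MIR and L2 copies also had no Xist, the noncoding RNA of X inactivation, which was above 0 in 14 of the 24 4-cell blastomeres and had a median of 0.564 FPKM in the other 20. Of the Y-linked genes, Ddx3y, an RNA helicase, was above 0 in all 4 of them (0.676 to 21.99 FPKM) and in 13 of 24 4-cell blastomeres in all. Uty was above 0 in all 4 (0.0123 to 6.21 FPKM) and Eif2s3y in 3 of the 4, up to 37.4 FPKM. Each of these 2 genes was above 0 in 15 of 24 4-cell blastomeres in all, and Eif2s3y reached 80.9 FPKM in the other 20. Usp9y was above 0 in 2 of the 4 and Zfy2 in 1, and Kdm5d, Uba1y and Zfy1 were at 0 in all 4. These genes were looked at after the X-linked copies had been counted. No 8-cell blastomere had fewer than 7 X-linked copies, and that lowest number was in the shallowest library, S57.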
